A study of Mus musculus with 2 samples.

Results

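Glutamate receptor genes and the genes of the scaffolds that hold these receptors at the synapse were examined for open chromatin in mouse cortex. The set held 39 protein-coding genes of 21884 in the GENCODE M21 annotation: 4 AMPA, 5 kainate, 7 NMDA and 1 delta receptor subunit, 7 metabotropic receptors, 5 transmembrane AMPA receptor regulatory proteins (TARPs), and 10 scaffold genes (4 MAGUK, 3 Shank and 3 Homer). The genes were chosen by name, from their known products, and not by a measured value. Earlier results of these data were known when the choice was made. DNase-seq, which cuts the DNA of nuclei with DNase I so that open chromatin collects many cuts, had been run on left cerebral cortex of adult male B6CASTF1/J mice aged 18 to 20 months. B6CASTF1/J is an F1 hybrid of a C57BL/6 strain and the wild-derived strain CAST. The series holds 1 group of 2 libraries, labelled biological replicates 1 and 2. The labels give them 1 donor entry between them and do not say if the tissue came from 1 animal or 2, so the spread between the libraries may be technical. With no second condition there was no contrast to test, and values are given per library, as mean ± SD over both, and beside all protein-coding genes.

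Glutamate is the main excitatory transmitter of the cortex. AMPA receptors carry the fast synaptic current, NMDA receptors pass calcium when glutamate binding and depolarisation coincide, kainate receptors act on both sides of the synapse, and metabotropic receptors signal through G proteins. TARPs are auxiliary subunits that traffic and gate AMPA receptors. MAGUK proteins bind the tails of receptors and TARPs in the postsynaptic density, and Shank and Homer proteins form a deeper layer that links this complex to metabotropic receptors and the actin skeleton.

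A promoter peak was a deposited peak within 1 kb of an annotated transcription start site (TSS) of the gene, and a gene with such a peak is called open. Each peak carries a signal assigned by the authors, whose scaling the sources do not describe. Main lists held 72587 peaks in replicate 1 and 109692 in replicate 2 after overlapping peaks were joined, so replicate 2 had more calls. Cell type markers were checked first. All 6 markers of excitatory neurons and all 5 of neurons in general had a promoter peak in both libraries, against 1 of 6 for inhibitory neurons (Gad1). Astrocyte markers were open in 3 and 4 of 5 genes, oligodendrocyte markers in 4 and 4 of 5, microglial markers in 0 of 4 and liver markers in 0 of 3. Hindbrain and midbrain markers were open in 1 and 0 of 4. In bulk tissue, a site open in few cells and a site weakly open in many cells cannot be told apart.

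The sequences below show the open DNA just upstream of 4 receptor and scaffold genes, since these peaks had the strongest promoter signal in their families. They were read from the mouse reference GRCm38 (mm10), which is built from C57BL/6J, on the strand of the gene and outside annotated exons. Capitals mark bases that lay in a footprint, a short protected stretch, in the deposited footprint lists of both libraries, whether or not a peak reached them. In Homer1, Grin1 and Gria2 the first run of capitals lies outside the main peak of replicate 1 and inside that of replicate 2. The Homer1 sequence is chr13:93303557-93303756, plus strand, from base -200 to -1 before a TSS. That of Grin1 is chr2:25319188-25319360, minus strand, from -173 to -1. That of Gria2 is chr3:80802836-80803035, minus strand, from -200 to -1. The Grik4 sequence is chr9:42944821-42945020, minus strand, from -527 to -328.
Homer1: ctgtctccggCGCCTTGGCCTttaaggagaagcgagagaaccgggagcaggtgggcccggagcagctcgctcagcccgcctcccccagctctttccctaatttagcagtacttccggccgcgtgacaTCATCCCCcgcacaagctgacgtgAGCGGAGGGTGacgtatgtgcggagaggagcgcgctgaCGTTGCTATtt
Grin1: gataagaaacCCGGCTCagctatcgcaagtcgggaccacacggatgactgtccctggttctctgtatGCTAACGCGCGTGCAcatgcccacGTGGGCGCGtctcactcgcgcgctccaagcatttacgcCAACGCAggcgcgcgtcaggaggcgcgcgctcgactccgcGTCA
Gria2: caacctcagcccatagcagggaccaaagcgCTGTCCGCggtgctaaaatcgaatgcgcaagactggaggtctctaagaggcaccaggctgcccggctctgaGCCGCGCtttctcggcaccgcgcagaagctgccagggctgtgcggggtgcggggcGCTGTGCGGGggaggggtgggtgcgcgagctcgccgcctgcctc
Grik4: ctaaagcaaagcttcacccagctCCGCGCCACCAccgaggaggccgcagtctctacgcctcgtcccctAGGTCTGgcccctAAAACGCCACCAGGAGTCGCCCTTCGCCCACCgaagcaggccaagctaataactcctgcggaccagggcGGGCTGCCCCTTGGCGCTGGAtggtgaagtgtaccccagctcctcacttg
Footprinted bases in both libraries made up 39 of 200 bases in Homer1, 42 of 173 in Grin1, 25 of 200 in Gria2 and 71 of 200 in Grik4. In Gria2 the first capitals lie within the match to RE1, the element bound by the repressor REST, described further on.

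Most of the set had open promoters. Of the 39 genes, 35 (89.7%) had a promoter peak in replicate 1 and 34 (87.2%) in replicate 2 (88.5% ± 1.81, SD, n = 2). Over all protein-coding genes the shares were 60.7% and 61.2%. A peak in both libraries was found for 34 of 39 members, with 58.7% for all genes, and a peak in neither for 4 of 39, with 36.8% for all genes. The 4 without a peak were Grin2c, Grin3b, Grm2 and Cacng5, and Grm6 had a peak in replicate 1 alone. Every gene of the AMPA, kainate, delta, MAGUK, Shank and Homer families was open in both libraries. NMDA receptors were open in 5 of 7 genes in both libraries, metabotropic receptors in 6 and 5 of 7, and TARPs in 4 and 4 of 5.

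**Figure D1:**
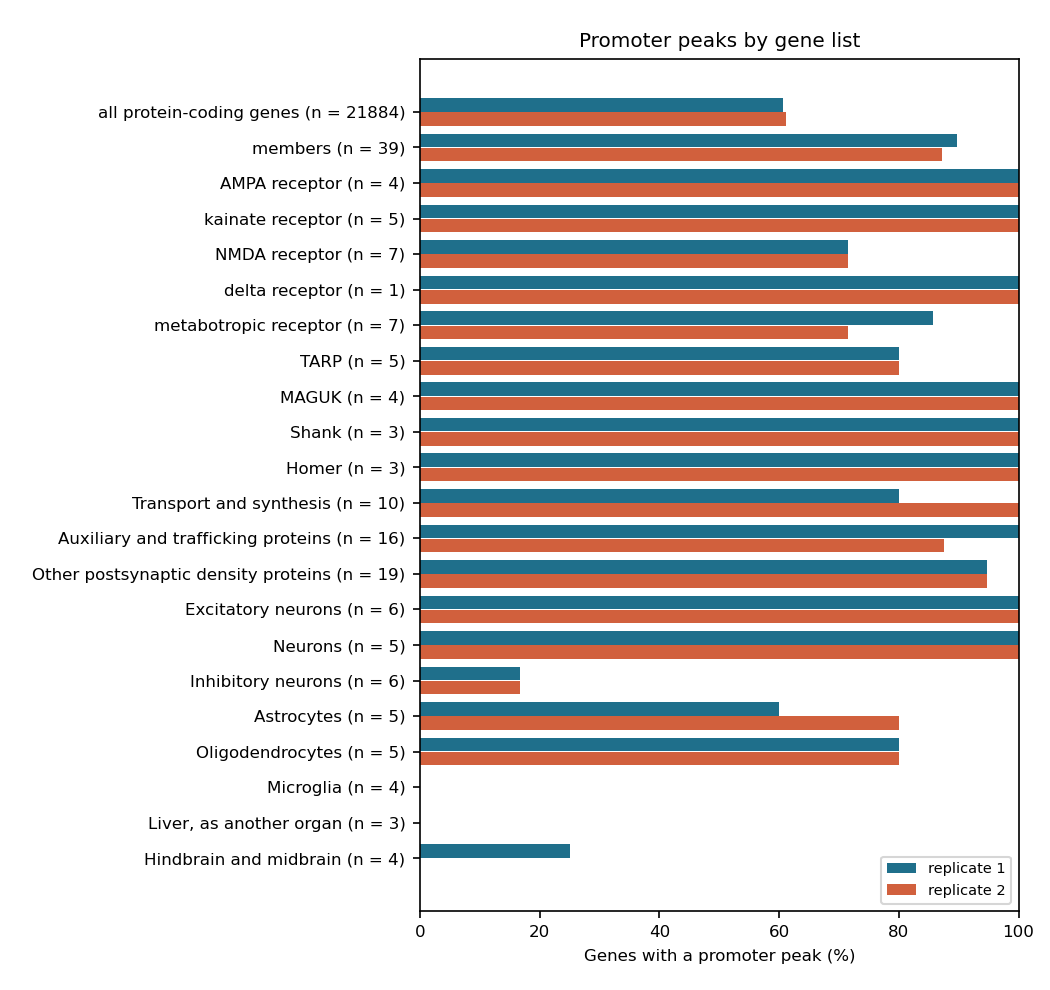
Share of genes with a promoter peak (%, horizontal axis) in replicate 1 and replicate 2 for all protein-coding genes, the 39 members, each family, 3 lists of related glutamate genes and the cell type markers. The 39 members reach 89.7% and 87.2%, all protein-coding genes 60.7% and 61.2%, and the microglial and liver markers 0%.

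The open promoters of the set had a lower signal than open promoters in general. The strongest promoter peak of an open member had a median signal of 2.01 in replicate 1 and 1.67 in replicate 2 (1.84 ± 0.234, SD, n = 2). Over all open genes the medians were 3.82 and 2.88 (3.35 ± 0.663, SD, n = 2). Of the open members, 33 of 35 in replicate 1 and 29 of 34 in replicate 2 lay below the median of all open genes of their library. The gap between members and all genes was thus larger than the SD between libraries of either group.

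**Figure D2:**
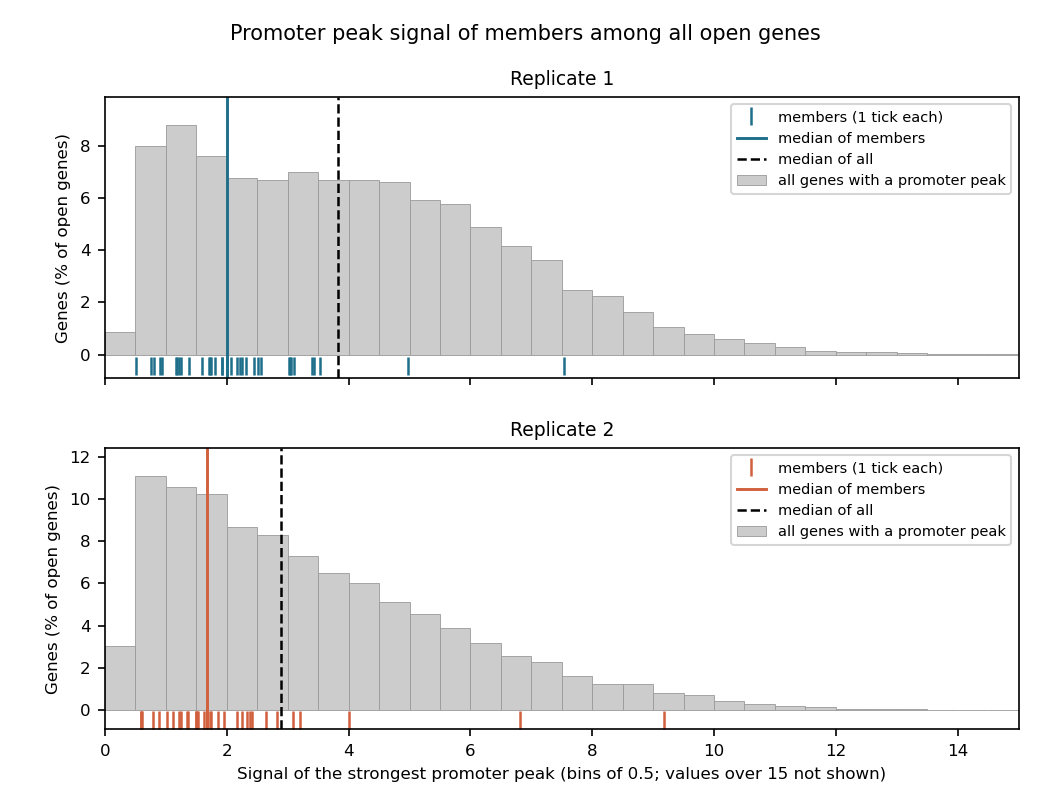
Distribution of the strongest promoter peak signal over all genes with a promoter peak (grey bars, % of open genes in bins of 0.5) in each library, with 1 coloured tick for each open member and the medians of members (solid line) and of all open genes (dashed line). Most member ticks sit left of the dashed lines at 3.82 (replicate 1) and 2.88 (replicate 2).

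The position of the strongest peak also differed from that of genes at large. It covered an annotated TSS base in 14 of 35 open members (40%) in replicate 1 and in 13 of 34 (38.2%) in replicate 2. Among all open genes these shares were 68.7% and 67.2%. In the other members the strongest peak stood beside the start site, as in Grik4, where it began 348 bp from the nearest TSS in replicate 1 and 328 bp in replicate 2. The peak of Grm3 lay 811 and 871 bp from the TSS, and that of Shank3 723 and 703 bp. Members often had several promoter peaks: 27 of 35 open members in replicate 1 and 23 of 34 in replicate 2 had 2 or more, against 53.6% and 52.9% of all open genes. Peaks were counted around every start site of a gene. Start sites in 2 or more groups over 1 kb apart were annotated for 56.4% of members and 21.3% of all genes. The part of this in the difference was not tested. The CpG ratio, observed over expected, was read within 500 bp on each side of the outermost TSS, for open and closed genes together. Its median was 0.54 for the 39 members and 0.57 for all genes, so it does not compare open promoters alone.

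**Figure D3:**
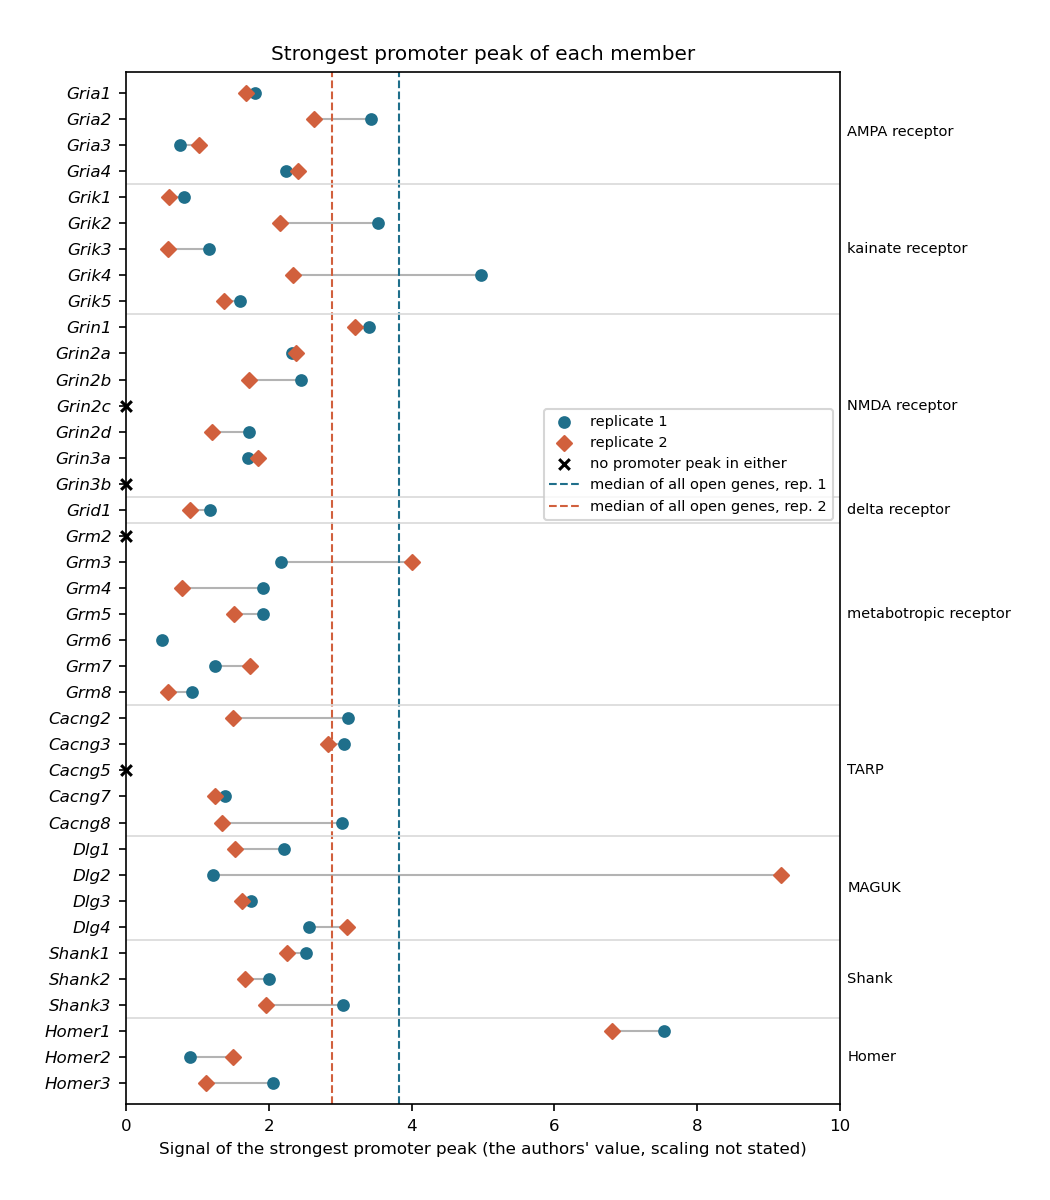
Signal of the strongest promoter peak (horizontal axis, the authors' value) for each of the 39 members by family, with replicate 1 as circles, replicate 2 as diamonds, crosses at 0 for genes with no peak in either library, and dashed lines at the medians of all open genes. Homer1 stands right of both dashed lines at 7.54 and 6.81, and the Dlg2 diamond at 9.18 is a peak at the start of a neighbouring gene.

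Among the AMPA receptor subunits, Gria2 had the strongest promoter peak. Gria2 encodes the subunit whose edited form makes the channel nearly impermeable to calcium. Its signal was 3.43 in replicate 1 and 2.64 in replicate 2 (3.03 ± 0.562, SD, n = 2), at chr3:80802661-80802960 and chr3:80802621-80803080, over the TSS. Gria4 followed with 2.24 and 2.42, and Gria1, a subunit added to synapses in plasticity, with 1.81 and 1.68. The X-linked Gria3 was lowest, with 0.75 and 1.02, and its strongest peak was not the same one in both libraries. The order Gria2, Gria4, Gria1, Gria3 was the same in both libraries.

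The kainate subunits covered a wide range of signals. Grik4, one of the high-affinity subunits, had 4.97 in replicate 1 at chr9:42944841-42945020 and 2.34 in replicate 2 (3.66 ± 1.87, SD, n = 2). Grik2 had 3.53 and 2.16, so the order of the 2 strongest genes was the same in both libraries, but their ranges overlapped. Grik5, the other high-affinity subunit, had 1.60 and 1.37. The lowest values belonged to Grik3, with 1.17 and 0.59, and Grik1, with 0.81 and 0.61. All 5 kainate genes were higher in replicate 1.

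In the NMDA family, the obligatory subunit gene Grin1 had the strongest promoter peak, with 3.40 at chr2:25319041-25319320 in replicate 1 and 3.20 at chr2:25319061-25319360 in replicate 2 (3.30 ± 0.142, SD, n = 2). Of the 2 subunit genes that dominate in forebrain, Grin2a had 2.32 and 2.38 and Grin2b 2.45 and 1.73. Grin3a, which encodes a subunit with a glycine-binding site, had 1.71 and 1.86, above Grin2b in replicate 2 and below it in replicate 1. Grin2d, known mainly from early development and interneurons, had 1.73 and 1.21. Grin2c, best known from cerebellar granule cells, and Grin3b, known from motor neurons, had no promoter peak in either library. The single delta receptor gene of the set, Grid1, had 1.17 and 0.89, from different peaks, the first over its start site and the second 53 bp from it.

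Of the metabotropic receptors, Grm3, a group II receptor found on neurons and astrocytes, had the strongest mean, with 2.17 in replicate 1 at chr5:9725981-9726180 and 4.01 in replicate 2 at chr5:9726041-9726300 (3.09 ± 1.30, SD, n = 2). Its spread was among the largest of the set. Grm5, the main group I receptor of cortex, had 1.92 and 1.51, Grm7 had 1.25 and 1.73, and Grm4 had 1.91 and 0.78. Grm5 was above Grm4 in both libraries, narrowly in replicate 1. The place of Grm7 differed between the libraries, and the values of the 3 genes overlapped. Grm8 had 0.93 and 0.59. Grm6, the receptor of retinal ON bipolar cells, had 0.50 in replicate 1 at chr11:50851021-50851496 and no peak in replicate 2. Grm2, the other group II receptor, had none in either main list.

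Among the TARPs, Cacng3 had 3.05 and 2.83 (2.94 ± 0.155, SD, n = 2), with its peak at chr7:122670941-122671280 in replicate 1. Cacng2, the gene of stargazin, had 3.11 and 1.5, and Cacng8, a TARP abundant in hippocampus, had 3.02 and 1.35. Both were more than 2-fold higher in replicate 1. Cacng7 had 1.39 and 1.24, and Cacng5 had no peak in either library.

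The 10 scaffold genes were all open, and Homer1 had the strongest promoter peak of the set that lay at a member's own start. Homer1 encodes both long adaptors, which tie metabotropic receptors to Shank, and a short form induced by activity. Its signal was 7.54 at chr13:93303581-93303800 in replicate 1 and 6.81 at chr13:93303401-93303820 in replicate 2 (7.18 ± 0.515, SD, n = 2). Among all open genes this was percentile 90.2 and 90.0. Homer3 had 2.07 and 1.121, and Homer2 0.90 and 1.5, so the family members differed from Homer1 by far more than the libraries did. Shank3, the gene lost in Phelan-McDermid syndrome, had 3.04 and 1.96 (2.5 ± 0.768, SD, n = 2). Shank1 had 2.52 and 2.25 and Shank2 2.01 and 1.67.

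The MAGUK genes need a remark on Dlg2, which encodes PSD-93. By the 1 kb rule its strongest peak was 1.22 in replicate 1 and 9.18 in replicate 2 (5.20 ± 5.62, SD, n = 2). The second value belonged to chr7:90475961-90476240, a peak at the start of the neighbouring gene Tmem126b that came within 991 bp of the outermost Dlg2 TSS. Its counterpart in replicate 1, chr7:90476041-90476220, had 7.79 but lay 1011 bp away, just outside the rule. Without this peak Dlg2 had 1.22 and 1.51 (1.37 ± 0.208, SD, n = 2), at an inner start site. Dlg4, the gene of PSD-95, the main scaffold of the excitatory postsynapse, had 2.57 and 3.09 (2.83 ± 0.370, SD, n = 2) at chr11:70029561-70029780 in replicate 1. Dlg1 had 2.21 and 1.52, and the X-linked Dlg3 had 1.75 and 1.62.

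The libraries gave similar signals for most of the set. Of the 34 members open in both, 29 were within 2-fold, and the median ratio of the higher to the lower value was 1.35. The strongest peak was the same stretch of DNA in 29 of 34, the exceptions being Gria3, Grin2a, Grid1, Dlg2 and Homer2. Grik4, Grm4, Cacng2 and Cacng8 were over 2-fold higher in replicate 1, with Grm4 the most unequal at 2.45-fold apart from Dlg2. The difference was also read by GC content. In the 16 members other than Dlg2 whose strongest peak in replicate 1 was at least 65% GC, the median log2 difference, replicate 1 minus replicate 2, was 0.53, and 14 were higher in replicate 1. In the 17 members with 55 to 65% GC it was 0.11, and 11 were higher in replicate 1. The part of GC content in the difference was not tested. Over all genes open in both libraries the median log2 difference was 0.32, and 9688 of 12840 were higher in replicate 1. All genes were not divided by GC content. The counts by GC content therefore do not show whether the pattern is particular to the set.

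The members without a promoter peak fell into 2 kinds when lists of lower stringency were read. In the authors' wider lists, where 65% and 66% of all genes had a promoter peak, 37 and 36 of 39 members had one. Grm2 then had a peak with a signal of 1.00 in replicate 1 and 0.97 in replicate 2, and Cacng5 one of 0.57 and 0.42. The deposited per-base false discovery rates (q-values, listed up to 0.05) gave the same division. Within 1 kb of the Grm2 start sites the lowest q was 0.0120 and 0.0142, with 105 and 132 listed bases. Around Cacng5 the lowest q was 0.00749 and 0.00549. Neither gene had a base at a q of 0.001 or below. Grin2c and Grin3b had no listed base in either library within 1 kb of a start site, over windows of 3815 and 2001 bp. Grm6 had 622 listed bases in replicate 1, with a lowest q of 1.138e-05, and none in replicate 2.

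Many genes of this set have several annotated start sites. Whether these give different transcripts or proteins here was not examined. Start sites within 1 kb of each other were joined into groups. Of the 39 members, 22 (56.4%) had 2 or more such groups, against 21.3% of all genes, and all 10 scaffold genes were among the 22. Of 67 groups in all, 43 had a peak in both libraries and 20 in neither. In the 22 genes with several groups, the outermost group was open in both libraries in 17. Of their 28 inner groups, 12 were open in both libraries and 13 in neither. Peaks at start-site groups were counted for the members alone. These counts therefore do not show whether the pattern is particular to the set.

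**Figure D4:**
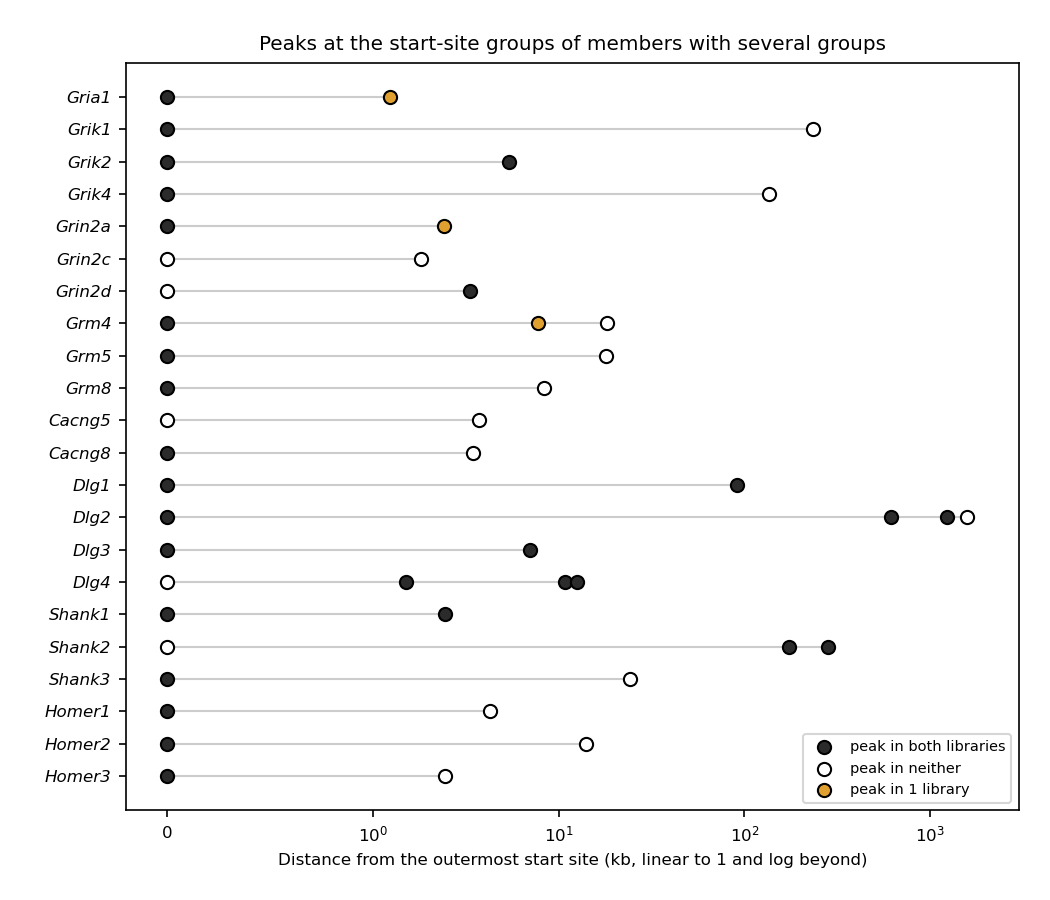
Start-site groups of the 22 members with several groups, placed by distance from the outermost start site (kb, linear to 1 and log beyond), filled black for a peak in both libraries, orange for a peak in 1 library and white for neither. The outermost group is black in 17 of 22 rows, and the long MAGUK and Shank2 genes have black inner groups.

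Shank2 and Dlg4 showed open inner starts behind a closed outermost one. In Shank2 the outermost TSS had no peak in either library. The inner groups 174 kb and 283 kb downstream had signals of 2.01 and 1.67, and of 1.75 and 1.48. In Dlg4 the outermost TSS had no peak, while the groups 1.5 kb, 10.8 kb and 12.5 kb downstream were open in both libraries. The last of these was the strongest, with 2.57 and 3.09. Grin2d was the third such gene, with a closed outermost TSS and an open group 3.30 kb downstream. Dlg2 had open groups at 613 kb and 1234 kb from the outermost start, and a closed one at 1585 kb. Its group at 613 kb had 1.22 and 1.51 and that at 1234 kb had 0.79 and 1.37. The opposite order, an open outermost and a closed inner start, was seen in Grik1, Grik4, Grm5, Grm8, Cacng8, Shank3, Homer1, Homer2 and Homer3. Grm4 also had an open outermost start and a closed one 18.1 kb downstream, with a group at 7.69 kb open in replicate 1 alone. In Grik4 the closed start lay 136 kb downstream and in Grik1 234 kb downstream.

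Distal peaks, those over 1 kb from every annotated TSS of any gene, were counted over each gene and its 10 kb flanks. The members held 283 distal peaks in replicate 1 and 507 in replicate 2. At least 1 was found at 36 of 39 members in replicate 1 and 38 in replicate 2, beside 58.3% and 67.4% of all genes. The members were long, with a median length of 121 kb against 17.4 kb for all genes, which bears on any count per gene. Per 100 kb the median was 2.82 in replicate 1 and 3.78 in replicate 2 (3.30 ± 0.680, SD, n = 2), and over all genes 1.73 and 3.16 (2.45 ± 1.02, SD, n = 2). The median of the members was the higher one in each library, while the ranges of mean ± SD of members and of all genes overlapped. Both groups were read in the same 2 libraries, so each SD holds the difference between the lists. The median of the members was 6.06 in the wider lists and 1.77 when peaks with a signal under 1 were left out.

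**Figure D5:**
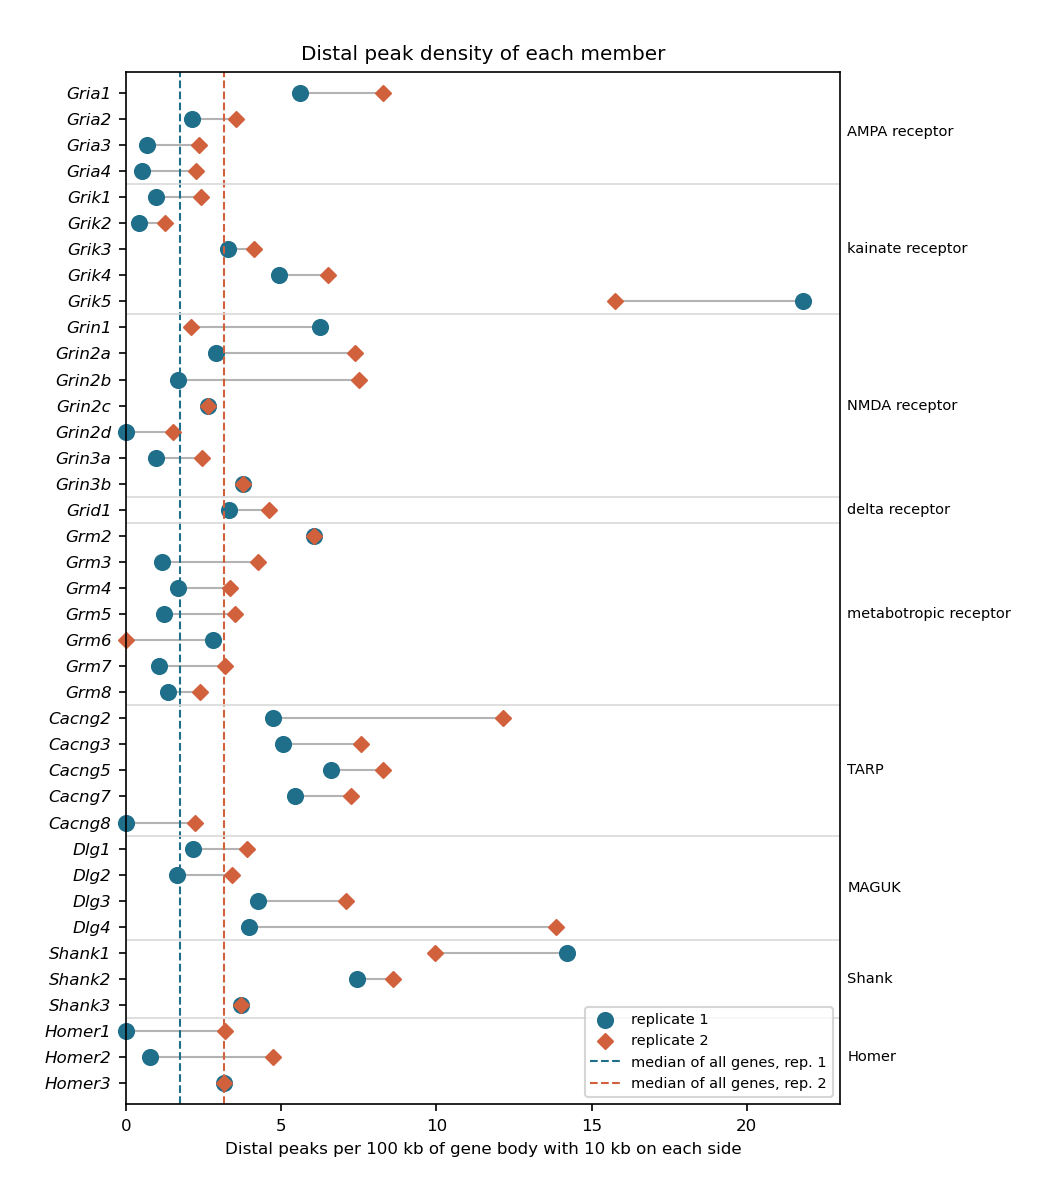
Density of distal peaks (horizontal axis, number per 100 kb of the gene and its 10 kb flanks) for each member by family, with replicate 1 as circles, replicate 2 as diamonds and dashed lines at the medians of all genes. Grik5 stands apart at 21.8 and 15.8, and 30 of 39 members have more distal peaks in replicate 2.

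The highest densities were at Grik5, Shank1 and Dlg4. Grik5 had 18 and 13 distal peaks, or 21.8 and 15.8 per 100 kb (18.8 ± 4.29, SD, n = 2), of which 12 were shared. In each library 8 lay in introns, and most of the others in a run at and just past its 3′ end. Shank1 had 10 and 7, or 14.2 and 9.95 per 100 kb (12.1 ± 3.02, SD, n = 2). Dlg4 had 2 and 7, or 3.95 and 13.8 per 100 kb, so its rank rested on replicate 2. The lowest means were those of Grin2d, with 0 and 1 peak, Grik2, with 3 and 9 in a window of 714 kb, and Cacng8, with 0 and 1. The largest numbers, in contrast, were found in long genes, with 33 and 68 in Dlg2, 33 and 38 in Shank2, and 26 and 36 in Grid1.

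By family, summed over members, the Shank genes had 7.75 and 8.09 distal peaks per 100 kb and the TARPs 4.67 and 8.65. The metabotropic receptors had 1.30 and 3.10. The Homer genes had 0.70 in replicate 1 and 3.87 in replicate 2, the most unequal pair among the families. Homer1, with the strongest own promoter peak of the set, had no distal peak in replicate 1 and 4 in replicate 2. Replicate 2 had more distal peaks than replicate 1 in 30 members, the same number in 5 and fewer in 4.

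Most distal peaks of replicate 1 recurred. Of its 283, 230 (81.3%, 95% exact binomial interval 76.2 to 85.7%, which covers counting error only) overlapped a peak of replicate 2 by at least 1 bp. Of the 507 in replicate 2, 225 (44.4%) overlapped one of replicate 1. Over all distal peaks of the libraries these shares were 86.9% and 49.1%. Shared distal peaks of the members had a median signal of 1.08 in replicate 1 and 1.37 in replicate 2, and those of a single library 0.69 and 0.67. Introns held 80.6% of the distal peaks in replicate 1 and 89.5% in replicate 2.

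The distal sequences that follow are the 3 strongest shared ones by mean signal that overlapped no annotated exon in replicate 1, shown because they are among the most open DNA away from the members' promoters. A stronger pair at Shank1 overlapped exons and is not printed. Capitals again mark bases footprinted in both libraries, and the strand is that of the gene. The Dlg4 sequence is chr11:70021451-70021750, plus strand, the centre of an intronic peak 2.56 kb from the nearest Dlg4 TSS. The Grin2b sequence is chr6:135907641-135907800, minus strand, inside an intron 265 kb from the gene's start. The Shank1 sequence is chr7:44305201-44305500, plus strand, in the upstream flank of the gene.
Dlg4: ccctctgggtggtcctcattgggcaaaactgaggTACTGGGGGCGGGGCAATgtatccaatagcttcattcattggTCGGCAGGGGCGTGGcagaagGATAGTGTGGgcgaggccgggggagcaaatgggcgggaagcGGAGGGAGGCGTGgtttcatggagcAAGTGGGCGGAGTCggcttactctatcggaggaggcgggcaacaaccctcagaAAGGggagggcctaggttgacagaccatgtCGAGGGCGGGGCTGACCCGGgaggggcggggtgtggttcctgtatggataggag
Grin2b: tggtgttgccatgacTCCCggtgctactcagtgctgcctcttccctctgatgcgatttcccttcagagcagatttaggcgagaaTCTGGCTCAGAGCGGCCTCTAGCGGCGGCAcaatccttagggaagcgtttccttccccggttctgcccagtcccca
Shank1: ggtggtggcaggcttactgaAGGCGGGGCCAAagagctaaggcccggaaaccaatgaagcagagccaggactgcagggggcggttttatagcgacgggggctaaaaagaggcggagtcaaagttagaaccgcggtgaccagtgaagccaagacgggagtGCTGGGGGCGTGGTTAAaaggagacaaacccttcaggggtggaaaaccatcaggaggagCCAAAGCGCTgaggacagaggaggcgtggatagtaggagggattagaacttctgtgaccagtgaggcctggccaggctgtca
The Dlg4 peak had 5.42 in replicate 1 and 6.02 in replicate 2 (5.72 ± 0.421, SD, n = 2), above the strongest promoter peak of the same gene. The Grin2b peak had 6.06 and 4.35 (5.20 ± 1.21, SD, n = 2), also above the promoter peak of Grin2b. At Shank1, 2 neighbouring peaks of replicate 1 with 6.56 and 3.34 met a single joined peak of replicate 2 with 6.11. The stronger one lay within the neighbouring gene Clec11a, and the other is the printed one. The value of 6.11 was counted for both, so the mean of the printed peak, 4.73, and its rank rest on this matching. Another Shank1 peak, chr7:44360081-44360300 at the 3′ end of the gene, had 7.07 and 5.20.

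Strong distal peaks were also found at members whose promoters were closed. At Grin2c the single distal peak, chr11:115270581-115270780, had 4.18 in replicate 1 and 3.05 in replicate 2. It lay 3.34 kb from the nearest Grin2c TSS, within the neighbouring gene Fdxr. At Grin3b it was chr10:79987121-79987300, in the flank past the gene, with 4.31 and 1.65. At Grm2 a peak in the last part of the gene, chr9:106643261-106643420, had 3.77 and 1.78. At Cacng5 chr11:107865261-107865440, in the flank past the gene, had 4.47 and 1.80. Which gene these peaks act on was not tested.

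The other families had their strongest shared distal peaks mostly in introns. Gria1 had one 25.8 kb from its nearest start with 2.82 and 3.76, and Grin2a one at 191 kb with 2.48 and 3.15. Shank2 had one at 133 kb with 3.55 and 4.64, and Shank3 one at 8.92 kb with 3.85 and 3.06. Dlg2 had its strongest at 127 kb from an inner start, with 2.46 and 3.54. In the flanks, Grm8 had one 1.44 kb before its start with 3.95 and 3.86, close to its own promoter and above it in signal. In all, 35 of 39 members had at least 1 shared distal peak. A distal peak in each library, shared or not, was found at 35 of 39 members and at 12346 of all 21884 genes. The greater length of the members bears on these counts.

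Footprints gave a similar count at members and elsewhere. Promoter peaks of the members held 249 footprints in replicate 1 and 248 in replicate 2, with a median of 3 and 2 per peak, against 3 and 3 for all promoter peaks. In the strongest promoter peak of each open member the median was 4 and 4.5, and for all open genes 4 and 4. That of Grm5 held 8 and 13 and that of Homer1 5 and 7. Distal peaks of the members held 640 and 1196 footprints, with a median of 2 and 2 per peak, as for all distal peaks.

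Matches to 14 binding motifs were searched on both strands, and a match is a description of letters and not a bound site. In RefSeq promoters on GRCm38, from 250 bases before to 50 after a start, 28 of 39 members matched by symbol, with 42 promoters. GGGCGG, the core of SP and KLF sites, stood in 45.2% of them and in 47.7% of all 20128 promoters of that length. GCGNGGGCG, the EGR site, stood in 6 of 42 (14.3%) and in 7.81% of all. CCGGAAG, the ETS site, was found in 4.76% and in 11.9% of all. TGACGTCA, the full cyclic AMP response element, was in 0 of 42 promoters and in 2.31% of all. The RE1 pattern was found in 1 of 42, that of Gria2, and in 13 of the 20128 (0.0646%). EGR and SP matches can overlap each other.

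For motif counts, a footprint had to lie inside a peak of its own library. SP and KLF matches were centred in 19 of 249 promoter footprints in replicate 1 (7.63%) and 15 of 248 in replicate 2 (6.05%). In all promoter footprints the shares were 14.9% and 13.4%. The pattern of CTCF, the insulator and loop-anchor protein, was centred in 17 of 640 distal footprints in replicate 1 (2.66%) and 14 of 1196 in replicate 2 (1.17%), against 4.48% and 2.43% of all distal footprints. Both shares were thus lower at the members in both libraries. In distal footprints, SP and KLF matches were instead at 3.44% and 1.59% for members and 2.29% and 1.57% for all. Of 18 distal CTCF matches at members, 13 were footprinted in both libraries, in 9 genes.

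The footprinted matches below are the 3 of RE1, NRF1 or CTCF in promoter peaks and, of the distal CTCF ones found in both libraries, the strongest by mean peak signal in each of the 7 genes that ranked highest. They are printed so that the site can be read in its context. Capitals mark the match, and the strand is that of the gene. Their places on mm10 are Gria2 chr3:80802985-80803010 (RE1) and chr3:80802813-80802838 (NRF1, a site of many housekeeping and synaptic promoters), both on the minus strand. For CTCF they are Homer3 chr8:70282956-70282981 (plus), Grik5 chr7:25036118-25036143 (minus), Shank2 chr7:144074871-144074896 (plus) and Dlg2 chr7:91226638-91226663 (plus). The other CTCF matches are Grik4 chr9:42573313-42573338 (minus), Grm8 chr6:27657705-27657730 (minus), Grin3a chr4:49688797-49688822 (minus) and Grik3 chr4:125703537-125703562 (plus).
Gria2 RE1: aagcgCTGTCCGCGGTGCTAAaatcg
Gria2 NRF1: ctcgagtCGCGCACGCGCGcccggga
Homer3 CTCF: tagctggCCAGCAGGGGGCgctgggc
Grik5 CTCF: acagaggCCAGCAGAGGGCgatgaat
Shank2 CTCF: caagcgcCCAGCAGGTGGCagtgcag
Dlg2 CTCF: agcagctGCCATCTAGTGGacaaaat
Grik4 CTCF: ggtgtgcGCCCTCTAGTGGggtttca
Grm8 CTCF: caatgttGCCATCTGCTGGtaggttc
Grin3a CTCF: aacgaatGCCACCTAGTGGctaaagt
Grik3 CTCF: cacttgtGCCCCCTAGTGGttactcg
The NRF1 match of Gria2 was footprinted in both libraries and lies at the start of the first exon. Its RE1 match was counted for replicate 2 alone, since the peak of replicate 1 ended before it. The footprint lists of both libraries held a footprint there, as the capitals of the Gria2 promoter show. The Homer3 match lay in the promoter peak over the TSS and was footprinted in both libraries. The Grik5 peak had 3.69 and 2.22, the Shank2 peak 3.70 and 1.84, and the Dlg2 peak 2.16 and 3.14.

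Other genes of the glutamate synapse, from lists chosen by function, were also mostly open, beside 60.7% and 61.2% of all protein-coding genes. Of 10 genes for glutamate transport and synthesis, 8 and 10 were open. Slc17a7, the vesicular transporter of cortical neurons, had 1.25 and 1.21. Of 16 genes for auxiliary and trafficking proteins of the receptors, 16 and 14 were open, with Shisa7 strongest at 4.19 and 5.08. Cnih2 and Nptx1 had a peak in replicate 1 only, with 1.91 and 3.11. Of 19 other genes of the postsynaptic density, 18 and 18 were open, and Iqsec2 alone had no peak. Their median signals were 2.56 and 2.31, also below the 3.82 and 2.88 of all open genes. Sipa1l1, which encodes a spine-associated Rap regulator, had 7.18 and 5.49, and Camk2a, the kinase of synaptic plasticity, had 4.28 and 4.29.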

How the data were processed

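The data were DNase-seq of 2 libraries of 1 group. The authors called peaks and footprints in each library from its own alignments on mm10, per the deposited notes. Not given in the sources used here are the aligner, the callers and their thresholds. The peak value deposited by the authors is a signal with unstated scaling. The footprint score deposited by the authors was 0.01 in every row and was not used. The deposited per-base values are q-values, listed up to 0.05 by the authors. One reference served for both parental alleles, which can lower the signal where CAST differs from it.

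Of the paired peak lists, the shorter served as the main and the longer as the wider list. Overlapping peaks of a list (634 and 1413) were joined and kept the highest signal. Genes and start sites came from the GENCODE M21 basic set and sequences from GRCm38.p6. Promoter peaks were those within 1 kb of an own start site. Footprints were counted when wholly inside a peak. The members, lists and motifs were chosen with earlier results of these data known. Genes named with positions were the strongest of each family, those open in 1 or no library, and the 3 highest and 3 lowest in distal peaks. Exonic distal peaks were passed over for printing. Read totals were not used here, so the number of calls stands in for depth. Computations used Python 3.11.15, pandas 2.3.3, numpy 2.4.6, scipy 1.17.1, pysam 0.24.0 and matplotlib 3.10.9, and were tested on simulated data.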

Additional observations from a re-analysis of the deposited data

How the results depend on the processing

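Of 48 recomputed values, 35 stayed within the spread between libraries (counts within 1.5 times), and 13 moved. The members' share with an open promoter was 82.1% with a window of 500 bp, 93.6% in the wider lists, 84.6% with lists reduced to equal numbers of strongest peaks and 75.6% with peaks of signal 1 or more. Over all genes the wider lists gave 65% and 66%. The other settings were computed for the members alone. They therefore do not show whether the difference from all genes holds there. Members open in neither library numbered 2 in the wider lists and 7 with peaks of signal 1 or more. The median of distal peaks per 100 kb was 6.06 in the wider lists and 1.77 with peaks of signal 1 or more. With equal numbers of peaks, 76.0% of the distal peaks of replicate 1 recurred, and the median footprints were 3.25 per promoter and 2.5 per distal peak. With peaks of signal 1 or more these medians were 3.5 and 3. The stricter lists hold fewer and stronger peaks and the wider lists more, by construction. Leaving out a library gave 87.2 to 89.7% for the share, 1.67 to 2.01 for the median signal, 2.82 to 3.78 distal peaks per 100 kb, 2 to 3 footprints per promoter peak and 2 per distal peak. Counting overlapping peaks as deposited, chosen after seeing the data, changed none of the 8 values beyond these limits. No paired analysis was possible because the series has a single group. Without read totals, a closed promoter means only that no peak was called at this depth.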

Other observations

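Some motifs of activity and neuronal identity were read in the distal footprints of the members, as values beside all distal footprints. TGANTCA, the AP-1 site of the activity-induced FOS and JUN proteins, was centred in 8 of 640 footprints in replicate 1 (1.25%) and in 25 of 1196 in replicate 2 (2.09%). All distal footprints had 1.08% and 2.20%. Of these AP-1 matches, 5 were footprinted in both libraries, in Dlg1, Dlg2 and Shank2. CAGATG, the E-box form read by neuronal basic helix-loop-helix factors, was centred in 21 (3.28%) and 60 (5.02%), against 3.92% and 4.31% of all. The MEF2 pattern was centred in 0 and 7 (0.585%), against 0.0806% and 0.339% of all. The order of members and all footprints thus differed between the libraries for each of these 3 motifs.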
